A study of Mus musculus with 3 samples.

Results

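The genes described here are core components of the JAK-STAT pathway: the kinases Jak1, Jak2 and Tyk2, the transcription factors Stat2, Stat3, Stat5a, Stat5b and Stat6, and the inhibitor Socs3. They were chosen by gene symbol, and all 9 are among the 14811 genes of the deposited table. The study sorted kidney macrophages from 3 mice of strain C57BL6/J and made 1 RNA-seq library per mouse. All mice belong to a single group, which had received PBS by vein 1 h before the organs were removed, and the tissue was digested with DNase, collagenase D and dispase for 30 min. The labels used here state neither age nor sex, and without a second group there is no comparison between conditions. The question was therefore how strongly each gene is read in these cells, how the genes stand to each other within a library, and how far mice differ. With 1 amplified library per mouse, a difference between mice cannot be told apart from one that arose in library preparation.

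Cytokine receptors without enzyme activity of their own carry JAK kinases on their inner tails. When a ligand joins the receptor chains, the kinases phosphorylate each other and the receptor, STAT proteins dock there and are phosphorylated in turn, and STAT dimers then bind DNA in the nucleus. SOCS proteins, some of them encoded by STAT target genes, shut the signal down. In macrophages this route carries responses to interferons, IL-6, IL-10, IL-4, IL-13 and GM-CSF. RNA levels, the only measure here, do not show phosphorylation.

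Levels are normalised reads, that is, reads per gene divided by a size factor of the library. Genes of different length are set side by side only as normalised reads per kb of exon, with exon lengths from GENCODE M21. The libraries held 50646558 to 56718534 reads over the listed genes, and across 11603 genes with a mean of 10 or more normalised reads the log2 levels of 2 mice correlated with r from 0.492 to 0.548. Of 10 macrophage markers, 9 had at least 10 normalised reads in each mouse, and the exception was Itgam at 1021, 446 and 5.64 in mice 1, 2 and 3. Proximal tubule markers, 5 of 5 listed, summed to 6566, 25903 and 3979, and markers of the loop of Henle and distal tubule, 4 of 4 listed, to 250.006, 5872 and 1140. The B cell gene Cd79b, the marker of that list analysed here, was at 227, 3940 and 6359, while 3 of 6 T cell markers listed summed to 1.61, 3.88 and 113, the last mostly Cd4, with Cd3e at 0 in each. Of 5 neutrophil markers 2 are listed, S100a9 at 0 in each mouse and Csf3r at 19.4, 3.33 and 0. Of 5 dendritic cell markers 4 are listed, Clec9a at 3421, 1330 and 1462, Xcr1 at 534, 2.77 and 407, Flt3 at 4.84, 0 and 0 and Zbtb46 at 0, 0 and 16.2. In sorted bulk samples such as these, fewer cells of a type and less RNA per cell cannot be told apart.

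By mean level per kb the order was Stat6, Jak1, Jak2, Stat2, Stat5b, Stat3, Tyk2, Socs3 and Stat5a. The order at both ends rests on single mice: without mouse 3 Jak1 (499) stood above Stat6 (391), and without mouse 1 Stat5a (7.18) stood above Socs3 (3.19). Stat6 averaged 957 ± 1004 and Jak1 641 ± 246 normalised reads per kb, while Socs3 averaged 13.8 ± 18.5 and Stat5a 5.28 ± 7.72 (SD, n = 3). The median of the mean level over all listed genes was 69.3, so 6 of the 9 genes had means above it. A gene is called detected here if it reached 10 normalised reads in each mouse. That held for 7 of the 9 genes (not Socs3 and Stat5a) and for 44.4% of all listed genes. Jak1 was the only one of the 9 in the upper quartile of levels per kb in every mouse, a place held by 13.7% of all genes, so that share is near the background.

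**Figure D1:**
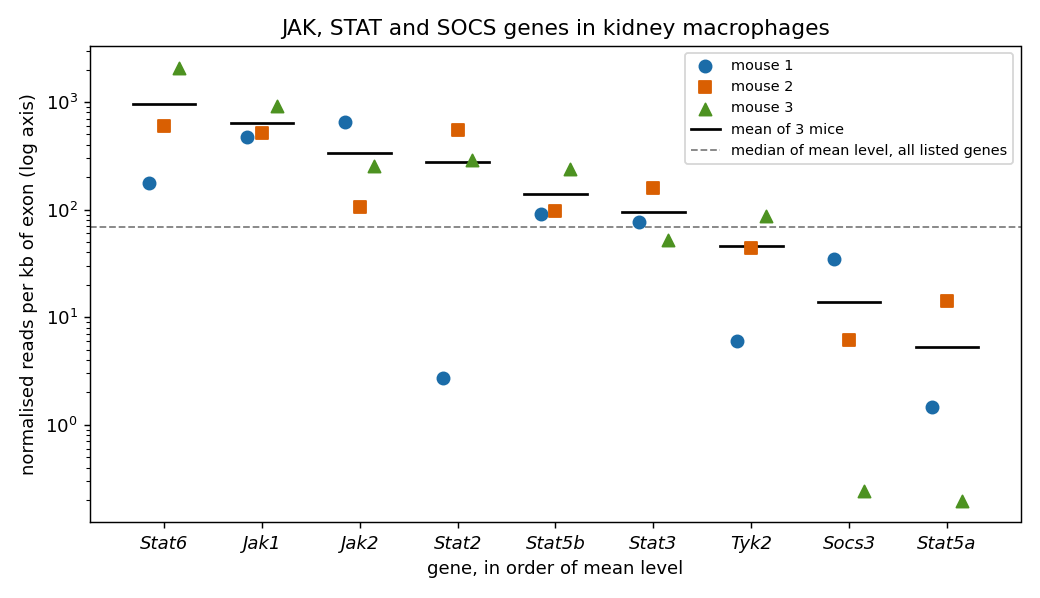
Level of each gene in each mouse, in normalised reads per kb of exon on a log axis, with a bar at the mean of 3 mice and a dashed line at the median of all listed genes (69.3). Jak1 sits between 478 and 924, while Stat2 lies at 2.72 in mouse 1 against 545 and 289 in mice 2 and 3, and the lowest points are Socs3 and Stat5a in mouse 3.

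Jak1, the kinase shared by interferon, gp130 and common gamma chain receptors, was at 478, 521 and 924 normalised reads per kb in mice 1, 2 and 3. The SD of its log2 level over mice was 0.52, the lowest of the 9 genes, and among genes of similar mean level (within 0.5 on the log2 scale) 24.2% had a lower one. That place rests on single mice: without mouse 3 the SD was 0.087 for Jak1 and 0.068 for Stat5b, and without mouse 2 it was 0.67 for Jak1 and 0.39 for Stat3. Jak2, which serves the interferon gamma, GM-CSF and erythropoietin receptors, was at 657, 106 and 254 normalised reads per kb. Jak2 was thus highest in mouse 1, the library in which Jak1 was lowest. Tyk2, the kinase of the type I interferon and IL-10 receptors, was the lowest of the kinases in every mouse, at 5.99, 44.4 and 88.2 normalised reads per kb. In mouse 1 this rested on 51 reads (95% exact Poisson interval 38.0 to 67.1).

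As a share of the summed per-kb level of the 3 kinases, Jak1 made up 41.9%, 77.6% and 73.0% in mice 1, 2 and 3. Jak2 made up 57.6%, 15.8% and 20.1%, and Tyk2 0.525%, 6.62% and 6.97%. Jak1 led in mice 2 and 3 and Jak2 in mouse 1. Within each library Jak1 stood above Tyk2, by a mean log2 ratio per kb of 4.41 ± 2.01 SE over 3 mice, without passing the threshold (adjusted p = 0.128, limma over all genes). Jak1 exceeded Jak2 in 2 of 3 mice, with a mean log2 ratio of 1.23 ± 1.49 SE (adjusted p = 0.562, limma). The SE is limma's moderated one, which draws on the spread of all genes in a fit. In the fits against Tyk2, Stat2, Stat5a and Stat6 the 9 genes' pairs share a single SE, so it is not the pair's own: the Jak1/Tyk2 ratio had an SD of 1.63 over the mice and the Jak2/Tyk2 ratio one of 3.09.

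Stat6, the factor that acts after IL-4 and IL-13, was at 178, 604 and 2090 normalised reads per kb. Mouse 3 was 11.7 times mouse 1. Per kb of exon Stat6 was the highest of the 5 STAT genes in every mouse, but in mouse 2 this depends on the length used: Stat2 had 3228 and Stat6 2659 normalised reads there, and Stat2 also led with the longest transcript as length. Stat6 took 51.1%, 42.6% and 78.4% of their summed per-kb level, a mean of 57.3% ± 18.7 (SD, n = 3). Stat6 followed the same order of mice as Jak1, Tyk2 and Stat5b, and as the B cell gene Cd79b, whose part in these values was not tested.

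Stat2, a part of the interferon-activated complex ISGF3, differed most between mice. Its level was 2.72, 545 and 289 normalised reads per kb, from 20, 5817 and 2430 reads. The 20 reads of mouse 1 have a 95% exact Poisson interval of 12.2 to 30.9, and the ratio of mouse 2 to mouse 1 was 200 (exact binomial interval 129 to 328, counting error only). Mouse 1 therefore stood far below both other mice, beyond counting error. Nearly all genes varied beyond it: of 12562 genes expected at 5 or more reads, 98.0% differed between libraries by more than sampling noise. The SD of the log2 level of Stat2 was 4.13, and 83.1% of genes of similar mean level had a lower one. In contrast, Irf9, which encodes the DNA-binding part of ISGF3, was highest in mouse 1, at 1009, 313 and 143 per kb. The promoter window of Stat2, 250 bases before to 50 after the RefSeq start (GRCm38.p6, chr10:128270248-128270547, + strand), is shown because ISGF3 binds motifs of the form GAAA, any 2 bases, GAAA. The capitals mark the single match on either strand, which here lies on the opposite strand and begins at position -222 from the start.
Stat2: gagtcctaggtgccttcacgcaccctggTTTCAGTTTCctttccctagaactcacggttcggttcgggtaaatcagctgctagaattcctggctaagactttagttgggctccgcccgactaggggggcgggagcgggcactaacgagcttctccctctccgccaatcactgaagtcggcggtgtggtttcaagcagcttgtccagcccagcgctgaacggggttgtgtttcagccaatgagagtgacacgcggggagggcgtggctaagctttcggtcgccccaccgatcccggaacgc
Of 32851 RefSeq promoter windows of this length, 3.44% hold this motif, and of the windows of the 9 genes the Stat2 window alone does.

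Stat3, which carries IL-6 and IL-10 signals, was at 75.9, 160 and 51.8 normalised reads per kb, highest in mouse 2. Stat5b, which acts after GM-CSF, was at 90.3, 96.5 and 236, highest in mouse 3. Both were among the steadier genes, with log2 SDs of 0.83 and 0.77. Stat5a, the close relative of Stat5b, was at 1.47, 14.2 and 0.198 normalised reads per kb, from 13, 182 and 2 reads. Stat5a lay below Stat5b in each of the 3 mice, with a mean log2 ratio of -6.01 ± 1.60 SE (adjusted p = 0.0894, limma), without passing the threshold. In the fit against Stat5b the test called 0% of 11602 genes, with 4028 at an unadjusted p under 0.05. The pair was read from that fit alone. In the fit against Stat5a a smaller ratio, that of Stat3 to Stat5a (log2 ratio 5.44), was called, so the outcome depends on the reference. Reads that match both Stat5 genes could be split or dropped by the counting, so their separate values are uncertain. Stat3 and Stat5a also share 72 exon bases on opposite strands, and no source used here says whether counting used strand. The same limit holds for Tyk2, which shares 554 exon bases with 1700084C06Rik, and for Stat6, which shares 40 with Nab2.

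Socs3, which binds gp130 and JAK kinases and blocks them, was at 34.9, 6.14 and 0.244 normalised reads per kb, from 125, 32 and 1 reads. Mouse 1 was highest and mouse 3 close to the limit of detection, where 1 read allows an interval of 0.0253 to 5.57 reads. Mouse 1 over mouse 3 gave a ratio of 143 (exact binomial interval 25.2 to 5694). Socs3 stood below Stat3 in 3 of 3 mice (log2 ratio -4.07 ± 1.62 SE), without passing the threshold (adjusted p = 0.0624, limma). In the fit against Stat3, 25.4% of all genes were called, and of the pairs of Stat3 with Socs3 and the 3 kinases 0 were. The promoter window of Socs3 (GRCm38.p6, chr11:117969317-117969616, - strand, written in the direction of the gene) is shown because STAT dimers bind TTCNNNGAA, a motif that reads the same on both strands. Its match is in capitals and begins at position -154.
Socs3: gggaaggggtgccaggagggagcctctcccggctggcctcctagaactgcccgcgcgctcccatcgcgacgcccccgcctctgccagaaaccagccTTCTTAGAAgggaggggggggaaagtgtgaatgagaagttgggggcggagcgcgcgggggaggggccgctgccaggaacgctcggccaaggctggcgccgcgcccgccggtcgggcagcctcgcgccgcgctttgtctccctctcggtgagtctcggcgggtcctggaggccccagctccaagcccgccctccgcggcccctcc
This motif is in 8.30% of the 32851 windows, and among the windows of the 9 genes in that of Socs3 alone. The Socs3 window holds no match to the motif searched in Stat2. A match describes letters and not bound protein.

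**Figure D2:**
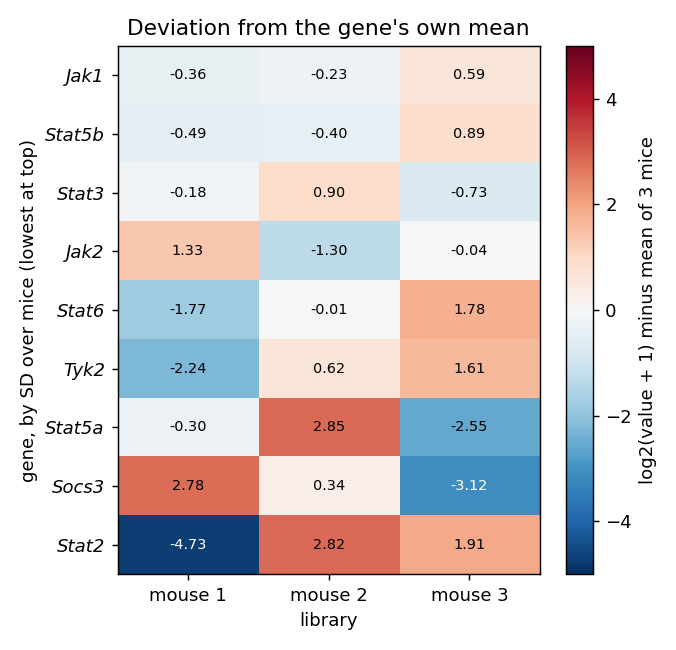
Log2(value + 1) of each gene in each mouse minus the gene's mean over 3 mice, with genes sorted by their SD. Jak1 stays within -0.36 and 0.59, while Stat2 spans -4.73 to 2.82 and Socs3 -3.12 to 2.78.

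The 9 genes did not move together between mice. Mouse 3 was highest for 4 of them (Jak1, Tyk2, Stat5b and Stat6), mouse 2 for 3 (Stat2, Stat3 and Stat5a) and mouse 1 for 2 (Jak2 and Socs3). Over all genes 32.1% were highest in mouse 3, 33.97% in mouse 2 and 33.94% in mouse 1, so these counts are near the background. Mouse 2 also had the highest sums of tubule markers, given above, and of collecting duct markers. Podocyte and endothelium marker sums were highest in mouse 3 (415 and 1385), and the fibroblast and mural sum in mouse 1 (942). The part of any of these cells in the values of the 9 genes was not tested. The median log2 SD of the 9 genes was 1.78. Since the SD depends on level, each gene was set against genes of similar mean level: 7 of the 9 lay below the median SD of those, while Stat6 (1.78 against 0.92) and Stat2 (4.13 against 1.73) lay above it. By the likeness of their deviations over 3 mice, the closest genes to Jak1 were Psma6 and Eif2s1 (root mean square difference 0.0092 and 0.020 on the log2 scale). For Stat3 these were Hist1h4n and Mocs2 (0.011 and 0.019), and for Socs3 the closest was Txndc16 (0.078). Each comparison rests on 3 values, and of 8991 genes 54 lay within 0.1 of Jak1, 14 of Stat3 and 3 of Socs3.

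No pair of neighbours in the order of levels passed the threshold, and these pairs were picked for being adjacent by mean. The per-kb values of all 8 neighbouring pairs overlapped between mice, and their adjusted p ran from 0.404 to 0.997 (limma). All 36 pairs were tested as ratios within a library on the log2(value + 1) scale. Each came from a fit of all 11602 other genes against 1 of 8 of these genes. That scale understates the ratio of a low gene to a high one and can overstate that of 2 low genes. For Socs3/Stat5a the log2 ratio was 1.37, and 1.25 with a pseudocount of 0.1. Each pair was read from 1 fit only, so a call depends on which of its genes was the reference. The 6 pairs past the threshold set a gene against Stat5a or Stat6. Against Stat5a, 4 of the 6 genes read were called, all higher, while 48% of all genes were called in that fit. Jak1 exceeded Stat5a by a log2 ratio of 8.27 ± 2.13 SE (adjusted p = 0.00061, limma), and Jak2 did so by 7.04 ± 2.13 SE (adjusted p = 0.0035, limma), each in 3 of 3 mice. Stat3 and Stat2 exceeded Stat5a with adjusted p of 0.0254 and 0.0303 (limma, log2 ratios 5.44 and 5.28, 3 of 3 mice). Against Stat6, 2 of 8 were called, both lower, while 42.4% of all genes were called. These were Stat5a (log2 ratio -8.26 ± 1.98 SE, adjusted p = 0.00033, limma) and Socs3 (log2 ratio -6.89 ± 1.98 SE, adjusted p = 0.0024, limma), lower in 3 of 3 mice. Calls against these genes were common across the whole table, so the counts are nothing particular to the pathway.

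Of the 6 calls, Jak1 over Stat5a alone was kept under all 9 alternatives (adjusted p 1.6e-05 to 0.043). Without mouse 1 the adjusted p was 0.120 for Jak2/Stat5a, 0.180 for Stat3/Stat5a, 0.0639 for Stat2/Stat5a, 0.101 for Socs3/Stat6 and 0.101 for Stat5a/Stat6. The Stat2/Stat5a call was also lost with a pseudocount of 0.1 (adjusted p = 0.0512) and with the longest transcript as length (adjusted p = 0.0519). Without mouse 2 the adjusted p was 0.0507 for Stat2/Stat5a, 0.113 for Socs3/Stat6 and 0.0825 for Stat5a/Stat6, and without mouse 3 it was 0.128 for Stat3/Stat5a, 0.341 for Stat2/Stat5a and 0.108 for Socs3/Stat6. The other 22 pairs were read against Jak1, Jak2, Tyk2, Stat3, Stat2 and Stat5b, and 0 of them passed with limma, with 6 at an unadjusted p under 0.05. In those fits 21.2% (Jak1), 0% (Jak2), 9.53% (Tyk2), 25.4% (Stat3), 0.155% (Stat2) and 0% (Stat5b) of all genes were called. The Socs3/Jak1 ratio lay at the threshold (log2 ratio -6.90 ± 1.61 SE, adjusted p = 0.0500016, limma, lower in 3 of 3 mice). All 6 calls come from the fits against Stat5a and Stat6, where the shared SE stands in for each pair's own spread (SD over mice 1.89 to 4.74). A call is therefore no measure of how alike the mice were. The lowest SD of the 36 pairs, 0.26, was that of Jak1/Stat5b, at log2 ratios of 2.40, 2.43 and 1.97 in mice 1, 2 and 3. That ratio was not called (adjusted p = 0.190, limma). One gene's spread between mice enters every ratio of its fit, and with 3 mice the smallest two-sided p of an exact sign-flip test is 0.25.

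**Figure D3:**
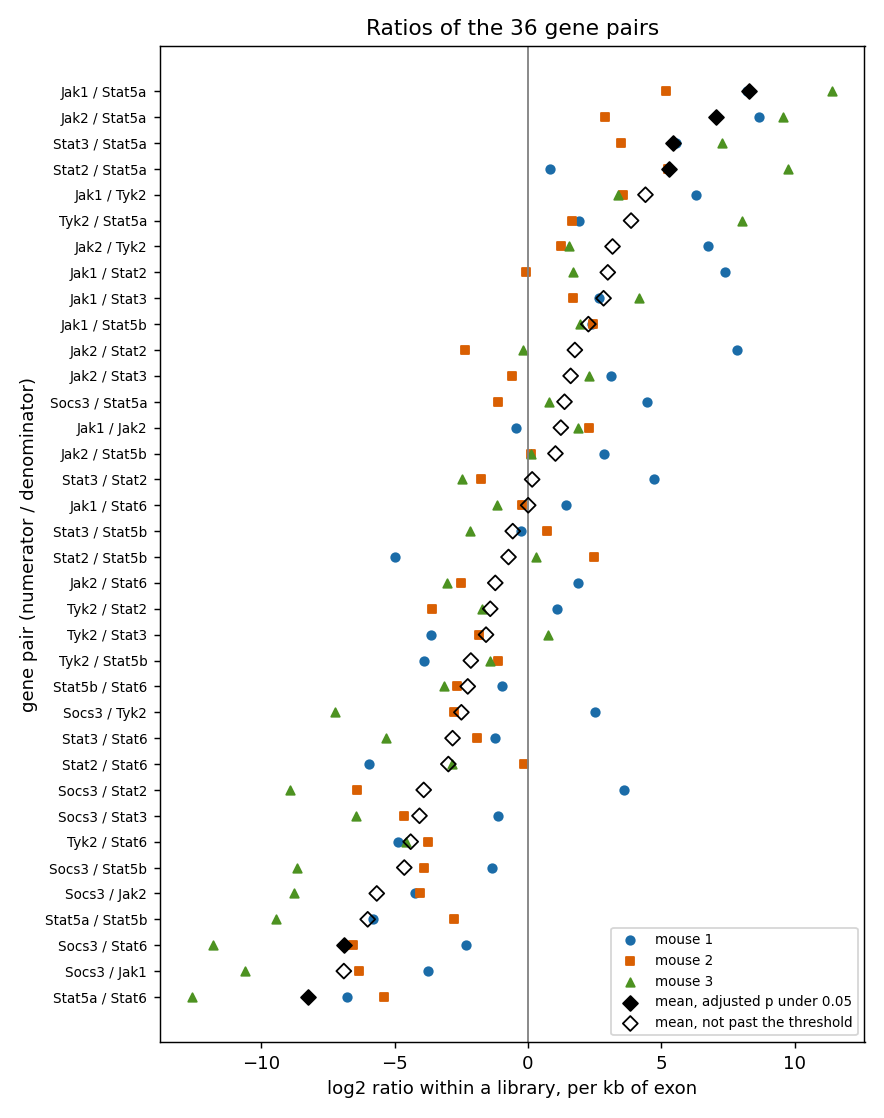
Log2 ratios per kb of exon within a library for the 36 pairs, with a symbol per mouse and a diamond at the mean, filled where the adjusted p was under 0.05 (limma). The 6 filled diamonds all involve Stat5a or Stat6, and the mice of a pair often spread over several log2 units.

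Lists of receptors, ligands, regulators and target genes held 140 genes, of which 112 are listed in the table. Of these 112, 68 were detected (44.4% of all genes), 29 lay in the upper quartile per kb in each mouse (13.7%) and 12 had no read in any mouse (6.59%). All 4 interferon receptor genes lay in that quartile, led by Ifngr1 at 8872 ± 1634, Ifnar2 at 2715 ± 650 and Ifnar1 at 942 ± 762 normalised reads per kb (SD, n = 3). Of 7 receptor genes of the gp130 and IL-10 families, 6 were detected. Il10rb (3530 ± 1149 per kb) and Lifr (2638 ± 1251 per kb) led, and the IL-6 receptor chain Il6ra followed at 257 ± 227 per kb. Both IL-10 receptor chains were present in every mouse, Il10ra at 169, 149 and 57.0 per kb.

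Among 6 genes of the common gamma chain and IL-4/IL-13 receptors, 3 were detected, and the highest were Il2rg (2064 ± 1519 per kb), Il13ra1 (1454 ± 1504 per kb) and Il15ra (326 ± 236 per kb). Il4ra, the chain through which IL-4 reaches Stat6, was at 0.403, 4.72 and 21.1 per kb, far below Stat6 in every mouse. Of 9 receptors of the common beta chain and growth factor group, 3 were detected, beside 44.4% of all genes. The highest were the GM-CSF receptor chain Csf2ra at 1764 ± 549 per kb, the erythropoietin receptor gene Epor at 229.6 ± 275 per kb and the growth hormone receptor gene Ghr at 94.7 ± 124 per kb, though Ghr had 13 reads in mouse 3. Ligands were mostly low: of 8 listed, Il15 (2154 ± 1406 per kb) was the only one detected. Il27 and Ifnb1 were next at 275 ± 261 and 69.7 ± 120 per kb, and Il6, Il10 and Il12b had no read in any mouse.

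Of the 7 other SOCS genes, 2 were detected, Socs4 (293 ± 216 per kb) and Socs7 (64.6 ± 87.0 per kb). Socs6 was at 0.497, 203 and 2.79 per kb, Socs1 was read in mouse 3 alone (102 per kb) and Socs2 had no read. Among the PIAS genes and phosphatases, which restrain the pathway by other means, 6 of 9 were detected, with Ptprc (5258 ± 1649 per kb), Ptpn6, which encodes the phosphatase SHP-1 (4135 ± 1722 per kb), and Pias1 (1721 ± 1543 per kb) highest. Of 13 further regulators, 12 were detected, beside 44.4% of all genes. The highest were Eloc, Rnf7 and Elob (Tceb1 for Eloc and Tceb2 for Elob in the table) at 3209 ± 1172, 2379 ± 1097 and 1808 ± 301 per kb, of which Eloc and Elob encode the elongins that link SOCS proteins to a ubiquitin ligase. At the low end Pias3 (8.72 per kb), Pias4 (11.9 per kb) and Sh2b2 (9.36 per kb) had means below that of Socs3 (13.8 per kb).

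Among further genes of the pathway core, Irf9 was detected at 488 ± 459 per kb (SD, n = 3), while Jak3 had 1 read in all and Stat4 was read in mouse 1 alone (54.4 per kb).

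Interferon targets, which ISGF3 drives, included 13 detected genes of 15, with a median of 577 normalised reads per kb. Over all listed genes 44.4% were detected, 6.59% had no read in any mouse, and the median was 69.3 per kb. Ifit3 (2584 ± 1320 per kb), Bst2 (1784 ± 959 per kb) and Xaf1 (1709 ± 498 per kb) led. The 15 genes summed to 32931, 32393 and 36460 normalised reads in mice 1, 2 and 3, and single genes ran both ways, Ifit3 being highest and Xaf1 lowest in mouse 1. Of 16 STAT3 targets, Socs3 itself among them, 9 were detected and the median was 41.6 per kb. Mcl1, a survival factor, was at 2939 ± 841, Hif1a at 955 ± 717 and Myc at 639 ± 520 per kb, while Timp1, Il1rn and Nfil3 had no read in any mouse. Of 9 STAT5 targets 6 were detected, with a median of 218 per kb, led by Id2 (3617 ± 1528 per kb), the cyclin gene Ccnd2 (829 ± 212 per kb) and Bcl2l1 (281 ± 325 per kb). Of the targets named for feedback on this factor, Cish was at 2.77 per kb in mouse 2 alone and Socs2 at 0.

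Of 12 listed STAT6 targets, 4 were detected and 5 had no read in any mouse, with a median of 18.8 per kb. Over all listed genes 44.4% were detected, 6.59% had no read, and the median was 69.3 per kb. The lectin genes Mgl2 (5117 ± 2813 per kb) and Mrc1 (1943 ± 692 per kb) and the nuclear receptor gene Pparg (940 ± 1120 per kb) led, while Arg1, Retnla, Ccl17, Ccl22 and Cd209a were at 0. Other factors also drive many genes of these lists.

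**Figure D4:**
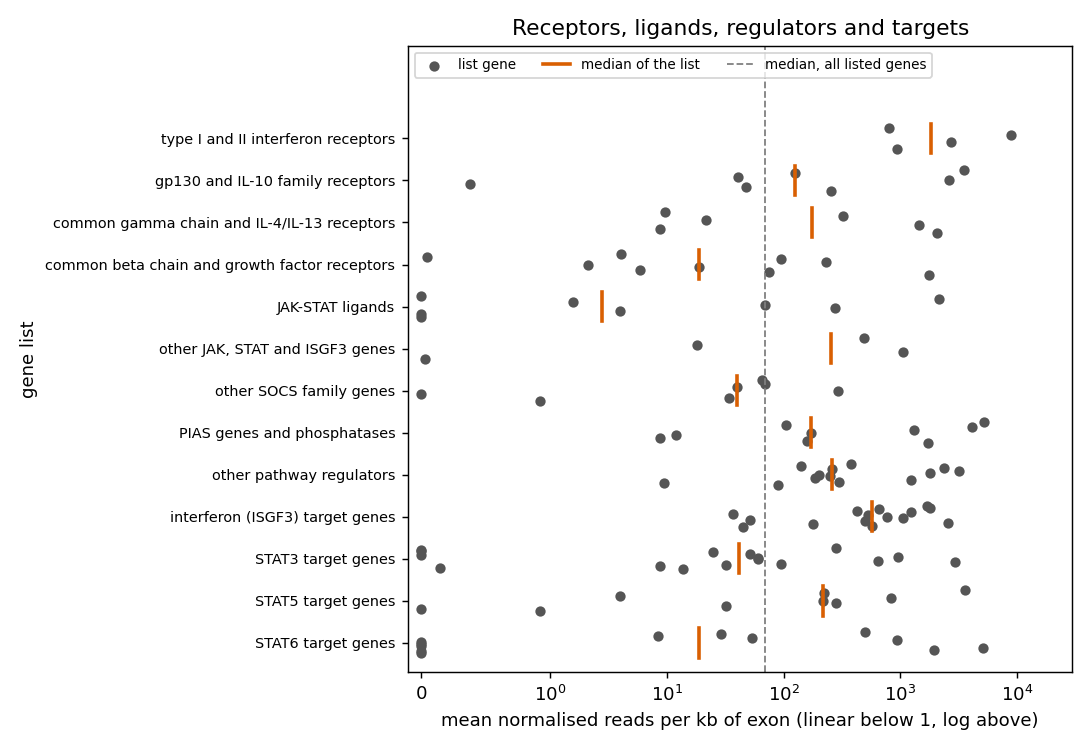
Mean level per kb of exon over 3 mice for each listed gene of 13 gene lists, on an axis that is linear below 1 and logarithmic above, with a bar at the median of each list and a dashed line at the median of all genes (69.3). Interferon receptors lie farthest right (median 1829), and ligands farthest left (median 2.75).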

How the data were processed

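Total RNA of sorted macrophages was amplified with the SMART-seq V4 kit and sequenced, per the labels' protocols. The authors deposited 1 normalised signal per gene and mouse. HTSeq 0.5.4, DESeq 1.18.0 and build mm9 are named in the submitters' processing notes. Aligner, annotation and the handling of shared or antisense reads are not stated in them. The lowest value is 1 in each library, so 1 was subtracted, as decided once the files had been inspected. What remains is in whole multiples of a step per library (100% of values, tolerance 0.05 of a step), which gave reads per gene. Amplified reads carry no molecular identifiers, so 95% intervals cover counting error only.

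Exon lengths came from GENCODE M21 by gene identifier (99.6% of genes), and promoter windows from RefSeq (GRCm38.p6), which held all 9 genes in 11 windows. Levels were tested as log2((value + 1) / kb) of each gene minus that of 1 pathway gene in the same library, with limma 3.58.1 in R 4.3.3 (moderated test, intercept only), over genes with a mean of 10 or more, with Benjamini-Hochberg adjustment over all genes of a fit and a threshold of 0.05. Scripts ran in Python 3.11.15 with scipy 1.17.1 and were tested on simulated data. The labels name 3 mice, and on that basis the libraries were counted as separate samples. Of 12562 genes expected at 5 or more reads, 98.0% differed between libraries by more than sampling noise. Differences that arose in library preparation count there too, so this share cannot show that the libraries are separate mice. Genes named were all 9 core genes, the 3 highest per kb of each list, members at 0 where 4 or fewer, and the 2 closest in pattern to Stat3, Jak1 and Socs3. Further genes, among them Il10ra, Il4ra, Pias3, Pias4, Sh2b2, Socs6, Socs1, Cish and the STAT6 targets at 0, were named after their values were seen. The genes and lists were chosen with earlier results of these data known. List genes without a row are not analysed here. Some genes that this rule names are not reported here.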

Additional observations from a re-analysis of the deposited data

How the results depend on the processing

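The count of called pairs was 6 of 36. It was 10 with a pseudocount of 10, 11 without a filter on low values, and 2 to 3 when a mouse was left out, and it stayed within 1.5 times of 6 under the other 4 alternatives. Both of the first 2 settings added Socs3/Jak1, Socs3/Jak2, Stat5a/Stat5b and Tyk2/Stat6, and the second also Socs3/Stat3. Without mouse 1 the calls included Socs3/Stat2, which is not among the 6 (log2 ratio -7.66, adjusted p = 0.0039, limma). With all mice its adjusted p was 0.536 (limma). Direction turned for Stat3/Stat2 with a pseudocount of 10 (log2 ratio -0.031) and for Stat3/Stat5b without division by length (0.21). With a mouse left out, the log2 ratio ran from -1.28 to 3.82 for Jak2/Stat2, -2.12 to 1.48 for Stat3/Stat2, -0.17 to 2.63 for Socs3/Stat5a, -2.34 to 1.39 for Stat2/Stat5b, -0.70 to 0.60 for Jak1/Stat6 and -1.22 to 0.24 for Stat3/Stat5b. None of these 6 ratios was called in any setting, and the cause was not tested. The median level of the 9 genes was 141 normalised reads per kb, and 915 normalised reads without division by length, a change of unit. In the mean over mice, Stat6 and Jak1 held the 2 highest places and Socs3 and Stat5a the 2 lowest under all 6 ways of ranking. Single mice differed from this. Per kb in mouse 1 the 2 highest were Jak2 and Jak1 and the 2 lowest Stat2 and Stat5a. In mouse 2 the 2 highest were Stat6 and Stat2. Each gene kept its highest and its lowest mouse under TMM scaling and with equal library totals, which shifted the median gene of a library by up to 0.20 on the log2 scale. Without mouse 1 the log2 SD of Stat2 was 0.65. No paired analysis was possible because there is a single group. The values of Socs3 and Stat5a in mouse 3 rest on the fewest reads, 1 and 2, and the cause was not tested.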
